A study of Mus musculus with 17 samples.

Results

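Iron storage and transport genes are described here across 5 groups of sorted mouse brain myeloid cells. The 10 members are Fth1, Ftl1, Ncoa4, Tfrc, Slc11a1, Hmox1, Slc40a1, Cp, Ireb2 and Aco1, picked by symbol from a table of 13501 genes. All 10 passed the filter on low values, as did 12074 genes in all. The study replaced the microglia of a mouse model of Alzheimer's disease with bone marrow-derived cells and compared donors with and without Trem2, which encodes a surface receptor that senses lipids. KO-donor cells (4 libraries) were circulation-derived Trem2-knockout myeloid cells in the brains of Trem2-knockout 5xFAD hosts, after bone marrow transplantation and PLX5622, which depletes microglia by blocking CSF1R. WT-donor cells (4 libraries) were Trem2-wild-type cells in Trem2-knockout 5xFAD hosts given the same treatment. KO 5xFAD microglia (3 libraries) and WT 5xFAD microglia (3 libraries) came from untreated Trem2-knockout and Trem2-wild-type mice that carried the amyloid-producing 5xFAD transgenes. Normal microglia (3 libraries) came from untreated wild-type mice without 5xFAD. The labels give no age or sex of the mice. Cell origin and treatment differ jointly between donor cells and microglia. WT-donor cells also sat in Trem2-knockout hosts, whereas WT 5xFAD microglia came from Trem2-wild-type mice, which enters the interaction below as well. These effects cannot be told apart. Sorting took living cells positive for CD45 and CD11b and no donor mark is named in the labels, so a donor library may also hold host cells.

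Cells store iron in ferritin, a shell of heavy and light subunits encoded by Fth1 and Ftl1, and release it when NCOA4 carries ferritin to the lysosome. Transferrin-bound iron enters through the transferrin receptor (Tfrc), heme iron is freed by heme oxygenase 1 (Hmox1), and iron leaves through ferroportin (Slc40a1), helped by the copper ferroxidase ceruloplasmin (Cp). Iron regulatory proteins, encoded by Aco1 and Ireb2, bind stem-loops called iron-responsive elements when iron is scarce. Binding in a 5′ UTR blocks translation, and binding in the 3′ UTR of Tfrc protects the mRNA from decay. The values below are mRNA levels, and protein was not measured.

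The iron-responsive elements are shown because they divide the members that hold one. Fth1, Ftl1 and Slc40a1 have an element before the coding sequence, and Tfrc has elements after it. The search described next found none in Hmox1, Cp, Ncoa4, Slc11a1, Ireb2 or Aco1. UTRs of the GENCODE vM21 annotation on GRCm38 were searched on the transcribed strand for a C, 5 bases, the loop CAGTGN (N being A, C or T) and 5 bases able to pair with the first 5, G-T pairs allowed. Capitals mark the loop, and letters are the DNA of the gene's strand, 5′ to 3′.
Fth1, 5′ UTR, chr19:9982732-9982760, plus strand: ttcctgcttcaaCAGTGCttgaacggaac
Ftl1, 5′ UTR, chr7:45459779-45459807, minus strand: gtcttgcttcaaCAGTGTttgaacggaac
Slc40a1, 5′ UTR, chr1:45925465-45925493, minus strand: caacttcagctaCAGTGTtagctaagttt
Tfrc, 3′ UTR, chr16:32631219-32631247, plus strand: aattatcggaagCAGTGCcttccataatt
Tfrc, 3′ UTR, chr16:32631598-32631626, plus strand: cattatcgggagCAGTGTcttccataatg
Tfrc, 3′ UTR, chr16:32631663-32631691, plus strand: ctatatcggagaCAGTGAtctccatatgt
Tfrc, 3′ UTR, chr16:32631710-32631738, plus strand: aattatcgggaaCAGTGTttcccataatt
Of 20561 genes with a 5′ UTR, 21 (0.102%) held such a match, and of 20954 genes with a 3′ UTR, 98 (0.468%) did. UTRs differ in length, so these shares are not per base. The ferritin elements share the stem next to the loop, and the 4 elements of Tfrc differ from each other in the loop or the stem. A match is a run of letters and not a measured binding site.

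Libraries held 16044078 to 30606394 reads (median 19254498). Trem2 averaged 4499 and 5282 normalized reads in KO-donor cells and KO 5xFAD microglia, against 45490 and 51270 in WT-donor cells and WT 5xFAD microglia, so the libraries followed their genotype labels. Summed reads of the 10 microglia markers were lower in KO-donor cells (605059 to 752268) and WT-donor cells (620370 to 650090) than in the microglia groups (881341 to 1285274). Reads summed over 8 markers of border and hematopoietic-origin macrophages were higher in donor cells (34879 to 49336) than in microglia (3457 to 8987). Cd163, which is on that list, went the other way. It averaged 69.2 in KO-donor and 73.3 in WT-donor cells, against 430, 425 and 806 in KO 5xFAD, WT 5xFAD and normal microglia. The read counts of S22 and S23 differed less from each other (chi-square of 6.11 per degree of freedom) than most pairs of a group, as did those of S25 and S27 (9.61) and of S30 and S31 (4.92), while other pairs gave 13.1 to 130, so each pair may be less independent than the labels imply. Among KO 5xFAD microglia, S26 stood apart from both others. Any fit without S26 leaves that group as the close pair S25 and S27, so its adjusted p-values may be too small. No label says that replicates are separate animals, so p-values measure the spread between these libraries. In such sorted bulk samples, fewer cells of a type and less RNA per cell cannot be told apart.

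Per kilobase of transcript, the ferritin subunits were far above the other members in every group. In KO-donor cells Ftl1 stood at 149400 ± 11800 and Fth1 at 91770 ± 7579 normalized reads per kb (SD, n = 4). They were followed by Slc11a1 (6447 ± 1223), Hmox1 (1635 ± 105), Slc40a1 (1212 ± 262), Cp (966 ± 104), Ncoa4 (864 ± 130), Aco1 (412 ± 43.5), Ireb2 (73.7 ± 19.6) and Tfrc (19.9 ± 3.46). In normal microglia the per-kb order was Ftl1 (53140 ± 2350), Fth1 (35160 ± 2227), Slc11a1 (4503 ± 331), Slc40a1 (2306 ± 70.1), Hmox1 (719 ± 49.3), Ncoa4 (599 ± 26.6), Aco1 (382 ± 22.6), Cp (65.3 ± 14), Ireb2 (61.9 ± 8.42) and Tfrc (50.9 ± 5.8; SD, n = 3). Neighbours whose libraries overlapped per kb were Slc40a1, Cp and Ncoa4 in KO-donor cells, and Cp, Ireb2 and Tfrc in normal microglia. Cp thus lay beside the low Ireb2 and Tfrc in normal microglia, and beside Slc40a1 and Ncoa4 in KO-donor cells.

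**Figure D1:**
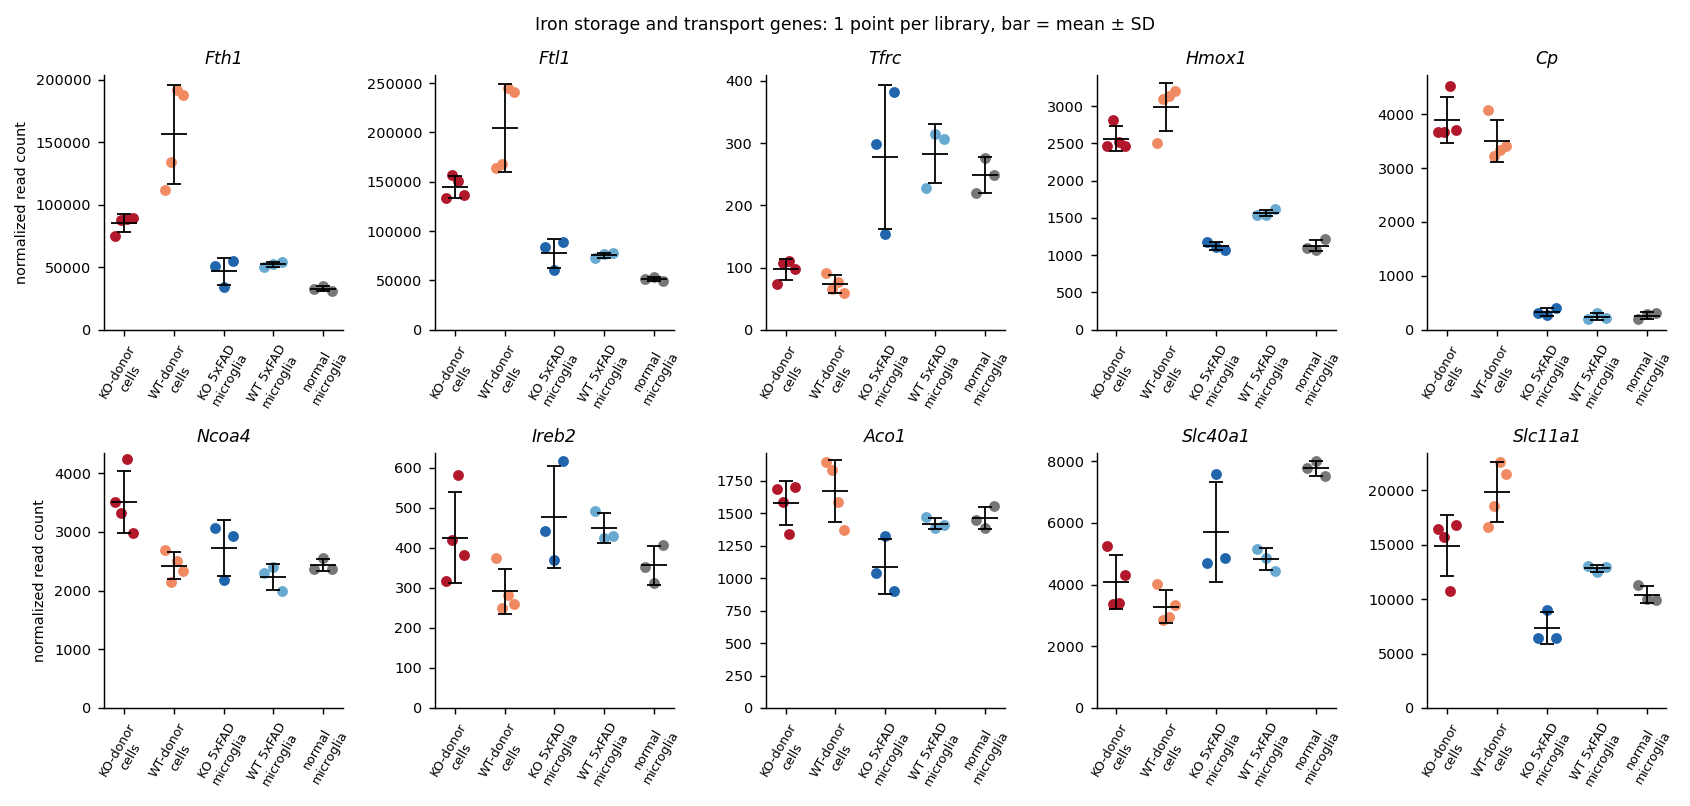
Normalized read counts of the 10 genes (vertical axes, linear, starting at 0) in 17 libraries, 1 point each, with the mean and SD of each group as bars. Fth1, Ftl1, Hmox1 and Cp are higher and Tfrc lower in every donor-cell library than in every microglia library. The share of all genes that separate in this way was not counted.

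Ferritin heavy chain mRNA was highest in WT-donor cells. Fth1 (ENSMUSG00000024661.7, chr19:9980598-9985098, GRCm38) had 74721, 88115, 88807 and 89374 normalized reads in KO-donor cells and 111756, 134175, 191493 and 187708 in WT-donor cells. KO 5xFAD microglia had 50683, 34221 and 54907, WT 5xFAD microglia 50491, 52435 and 54300, and normal microglia 32747, 34696 and 30561. Every donor-cell library was above every microglia library, and the KO-donor and WT-donor ranges did not overlap. The log2 difference was 0.90 (SE 0.185, limma adjusted p = 0.00137) for KO-donor cells against KO 5xFAD microglia and 1.54 (SE 0.185, adjusted p = 4.24e-06) for WT-donor cells against WT 5xFAD microglia. WT-donor cells were also higher than KO 5xFAD microglia by 1.74 (adjusted p = 1.12e-06) and than normal microglia by 2.22 (adjusted p = 3.69e-08).

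Fth1 was lower in KO-donor than in WT-donor cells by −0.84 on the log2 scale (SE 0.171, 95% interval −1.20 to −0.48, limma adjusted p = 0.013). The size of that difference rested in part on S30 and S31, the highest WT-donor libraries. Without S30 the adjusted p was 0.0629, without S31 it was 0.0598, and without both the difference was −0.53 (adjusted p = 0.241). S30 and S31 also held the largest summed reads of 8 oligodendrocyte markers, 23985 and 24195, against 7062 and 11096 in the other WT-donor libraries, while KO-donor libraries had 4528 to 6234 with Cldn11 at 0 in each. Erythroid markers summed to 2188 and 2064 in S30 and S31, and to 287 and 505 in S28 and S29. KO-donor libraries had 16.5 to 797. The part of these markers in the Fth1 difference was not tested. Within microglia Fth1 gave −0.20 (95% interval −0.61 to 0.22, adjusted p = 0.571) for KO 5xFAD against WT 5xFAD.

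WT 5xFAD microglia had more Fth1 than normal microglia in 3 of 3 libraries, at a log2 difference of 0.68 (95% interval 0.27 to 1.10), but the adjusted p was 0.0647 in limma. It was 0.0355 in edgeR's quasi-likelihood test, 0.011 in DESeq2 and 9.78e-05 in a limma fit of the compared groups alone. With 1 library left out limma gave 0.115 to 0.194, and with close pairs averaged 0.159. KO 5xFAD against normal microglia gave 0.49 (adjusted p = 0.124), with S26 inside the normal range. Without S26 the difference was 0.69 (adjusted p = 0.00791).

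Ftl1 (ENSMUSG00000050708.16, chr7:45457944-45459884), the light subunit, followed the same order of groups except within 5xFAD microglia. It had 133453, 157316, 151101 and 136660 normalized reads in KO-donor cells and 164228, 168019, 244935 and 240544 in WT-donor cells. KO 5xFAD microglia had 83661, 60905 and 88519, WT 5xFAD microglia 72809, 76562 and 77450, and normal microglia 51557, 53658 and 49113. Donor cells were again above all microglia, with S30 and S31 the highest. The log2 difference was 0.91 (SE 0.166, limma adjusted p = 0.000451) for KO-donor cells against KO 5xFAD microglia, 1.41 (SE 0.166, adjusted p = 3.33e-06) for WT-donor cells against WT 5xFAD microglia, 1.39 (adjusted p = 4.59e-06) for WT-donor cells against KO 5xFAD microglia and 1.97 (adjusted p = 4.58e-08) for WT-donor cells against normal microglia. KO-donor against WT-donor cells gave −0.48 (95% interval −0.80 to −0.15), with no overlap of libraries but an adjusted p of 0.0651 in limma. It was 0.0468 in edgeR and 0.00987 in DESeq2, and limma gave 0.0221 without S28 and 0.0488 without S29. Both of those limma fits keep the close pair S30 and S31. With close pairs averaged the difference was −0.39 (limma adjusted p = 0.247), and without S30 and S31 it was −0.20 (0.636). Ftl1 was above every normal library in both 5xFAD groups, at 0.58 in KO 5xFAD microglia (limma adjusted p = 0.0681, and 0.00306 without S26) and 0.56 in WT 5xFAD microglia (0.0999). Exons of Ftl1 overlap those of Gm22133 on the same strand and Gm10252 on the opposite strand, and 2 pseudogenes each are annotated under the names of Fth1 and Ftl1. None of those pseudogenes is in the table, and the sources used here do not say how reads shared with them were counted.

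Together, Fth1 and Ftl1 took 1.12% ± 0.096 of normalized reads in KO-donor cells and 1.58% ± 0.285 in WT-donor cells (SD, n = 4 each). The share was 0.709% ± 0.158 in KO 5xFAD microglia, 0.677% ± 0.024 in WT 5xFAD microglia and 0.455% ± 0.023 in normal microglia (SD, n = 3 each). The ratio of heavy to light subunit reads was lower in the knockout groups: 0.56 to 0.654 in KO-donor cells against 0.68 to 0.799 in WT-donor cells, and 0.562 to 0.62 in KO 5xFAD microglia against 0.685 to 0.701 in WT 5xFAD microglia. In normal microglia it was 0.622 to 0.647. Neither genotype pair overlapped. In an exact two-sided permutation test of log2 ratios, KO-donor against WT-donor cells gave −0.36 (log2, p = 0.0286, the smallest that 4 against 4 allows) and KO 5xFAD against WT 5xFAD microglia −0.22 (p = 0.1, the smallest that 3 against 3 allows). Adjusted over the 8 comparisons of this ratio, both exact p-values were 0.133, so neither passed the correction. Without S32, S33, S34, S29 or S30 in turn the exact p of the donor comparison was 0.0571.

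**Figure D2:**
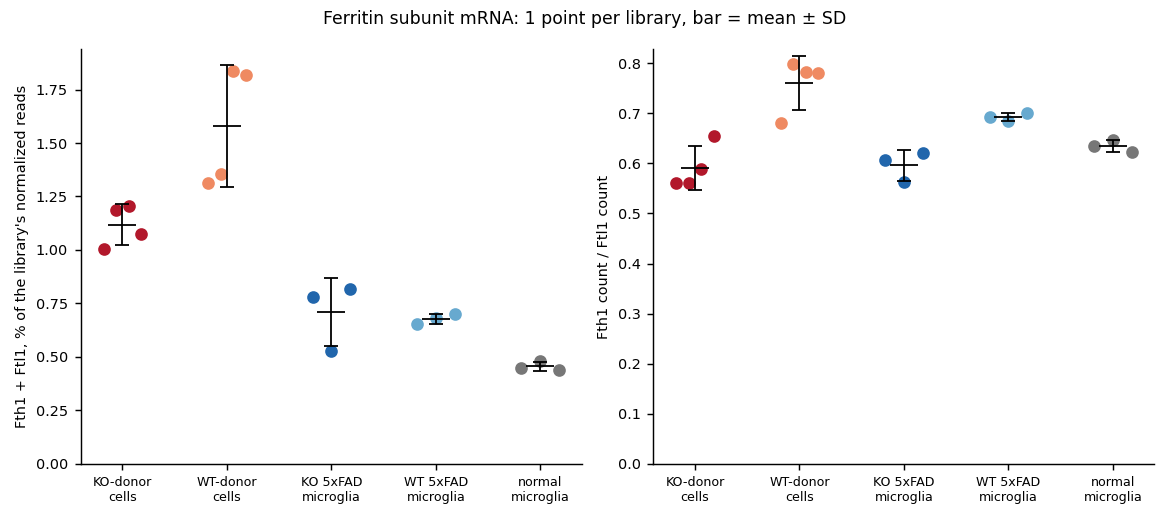
Left, share of each library's normalized reads taken by Fth1 plus Ftl1 (%). Right, the Fth1 to Ftl1 ratio of reads. Points are libraries, bars mean and SD, axes linear from 0. The share is highest in WT-donor cells (1.58%), and the ratio is lower in both knockout groups than in their wild-type counterparts.

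Ncoa4 (ENSMUSG00000056234.15, chr14:32159865-32179855), the cargo receptor of ferritin autophagy, moved opposite to Fth1 between the donor groups. KO-donor cells had 3504, 3326, 4234 and 2986 normalized reads, and WT-donor cells 2691, 2151, 2512 and 2331. The ranges did not overlap, and the log2 difference was 0.53 (SE 0.126, limma adjusted p = 0.0247). The adjusted p was 0.0757 without S34, 0.0743 without S30, 0.0855 without S31 and 0.214 without both S30 and S31, where the difference stayed at 0.53. In limma, Ncoa4 passed the threshold in no comparison of donor cells with microglia, with 0.37 for KO-donor cells against KO 5xFAD microglia (adjusted p = 0.0554, and 0.0423 in DESeq2) and 0.12 for WT-donor cells against WT 5xFAD microglia (0.557). For KO-donor cells against KO 5xFAD microglia the limma adjusted p was 0.0325 without S35, 0.0405 without S25 and 0.0114 without S25 and S27 (0.67), but 0.199 without S26 (0.21). KO 5xFAD against WT 5xFAD microglia gave 0.28 (adjusted p = 0.265), and 0.43 without S26 (adjusted p = 0.0235).

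Transferrin receptor mRNA was low in donor cells. Tfrc (ENSMUSG00000022797.16, chr16:32608920-32632794) had 73.4, 107, 111 and 97.5 normalized reads in KO-donor cells and 91.7, 66, 76.2 and 59.8 in WT-donor cells. KO 5xFAD microglia had 299, 153 and 382, WT 5xFAD microglia 228, 314 and 307, and normal microglia 220, 277 and 249. No donor-cell library reached the lowest microglia library, S26. The log2 difference was −1.43 (SE 0.271, limma adjusted p = 0.000677) for KO-donor cells against KO 5xFAD microglia and −1.94 (SE 0.271, adjusted p = 2.63e-05) for WT-donor cells against WT 5xFAD microglia. WT-donor cells were also lower than KO 5xFAD microglia by −1.83 (adjusted p = 5.24e-05) and than normal microglia by −1.76 (adjusted p = 6.39e-05). With S25 and S27 left out together, KO-donor cells against the remaining library S26 gave −0.67 (adjusted p = 0.165). Tfrc did not pass the threshold between KO-donor and WT-donor cells (0.40, 95% interval −0.13 to 0.93) or between any microglia groups.

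Slc11a1 (ENSMUSG00000026177.11, chr1:74375195-74386062), which moves divalent metals out of the phagosome, was lower in KO 5xFAD than in WT 5xFAD microglia. It had 6462, 9027 and 6474 normalized reads in KO 5xFAD microglia and 13031, 12449 and 12960 in WT 5xFAD microglia, with 11307, 10011 and 9955 in normal microglia. All 3 KO 5xFAD libraries were below every WT 5xFAD and normal library. The log2 difference was −0.83 against WT 5xFAD microglia (SE 0.169, limma adjusted p = 0.00646) and −0.53 against normal microglia (adjusted p = 0.0743, and 0.00394 without S26). With S25 and S27 averaged to 1 sample, as the closest pair, the first was −0.75 (adjusted p = 0.149), and without both it was −0.51 (adjusted p = 0.356). S25 and S27 were also the libraries with the most neutrophil marker reads, 112758 and 121545 summed over 9 markers, against 43646 in S26 and 3985 to 5093 in WT 5xFAD microglia. The part of these cells in the Slc11a1 difference was not tested.

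In donor cells Slc11a1 had 16425, 15718, 10734 and 16824 normalized reads with KO donors and 16591, 18534, 22600 and 21508 with WT donors. Donor cells were higher by 1.02 for KO-donor cells against KO 5xFAD microglia (SE 0.158, limma adjusted p = 8.75e-05) and by 0.62 for WT-donor cells against WT 5xFAD microglia (SE 0.158, adjusted p = 0.00648). WT-donor cells were above KO 5xFAD microglia by 1.44 (adjusted p = 1.59e-06) and above normal microglia by 0.92 (adjusted p = 0.000198). Without S30 and S31 the difference to WT 5xFAD microglia was 0.45 (adjusted p = 0.105). The donor genotypes gave −0.42 for KO-donor against WT-donor cells (adjusted p = 0.0832, and 0.0364 without S28), with overlapping libraries.

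Hmox1 (ENSMUSG00000005413.8, chr8:75093621-75100589), which splits heme into iron, carbon monoxide and biliverdin, was higher in donor cells and in WT 5xFAD microglia. KO-donor cells had 2463, 2810, 2519 and 2470 normalized reads and WT-donor cells 2506, 3101, 3143 and 3200. KO 5xFAD microglia had 1179, 1115 and 1075, WT 5xFAD microglia 1537, 1546 and 1615, and normal microglia 1095, 1071 and 1215. The KO 5xFAD and normal ranges overlapped, WT 5xFAD microglia lay above both, and donor cells above all. Donor cells exceeded microglia by 1.19 for KO-donor cells against KO 5xFAD microglia (SE 0.104, limma adjusted p = 1.04e-07), 0.93 for WT-donor cells against WT 5xFAD microglia (SE 0.104, adjusted p = 1.87e-06), 1.41 for WT-donor cells against KO 5xFAD microglia (adjusted p = 1.03e-08) and 1.40 for WT-donor cells against normal microglia (adjusted p = 8.49e-09).

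Among microglia, Hmox1 was lower in KO 5xFAD than in WT 5xFAD by −0.48 (SE 0.111, limma adjusted p = 0.0162) and higher in WT 5xFAD than in normal by 0.48 (SE 0.111, adjusted p = 0.0183). KO 5xFAD against normal microglia gave 0.00 (95% interval −0.24 to 0.23). Leaving out S27, S22, S23 or S24 in turn gave the knockout comparison an adjusted p of 0.0565 to 0.0762. Leaving out S22, S23, S24, S20 or S21 gave the 5xFAD comparison 0.063 to 0.0831. In the donor groups the genotype difference was −0.22 (adjusted p = 0.163, and 0.0364 without S28, the lowest WT-donor library). Erythroid marker reads were higher in KO 5xFAD microglia (1677 to 2331) than in WT 5xFAD microglia (400 to 441). Their part in the Hmox1 difference was not tested.

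Ferroportin mRNA was lower in WT-donor cells than in each microglia group. Slc40a1 (ENSMUSG00000025993.10, chr1:45908068-45926523) had 5243, 3373, 3418 and 4302 normalized reads in KO-donor cells and 4013, 2838, 2941 and 3332 in WT-donor cells. KO 5xFAD microglia had 4689, 7580 and 4865, WT 5xFAD microglia 5161, 4877 and 4439, and normal microglia 7777, 8005 and 7533. Normal microglia were above every other library but S26, which lay inside their range. WT-donor cells were lower by −1.26 against normal microglia (SE 0.174, limma adjusted p = 1.95e-05), −0.78 against KO 5xFAD microglia (adjusted p = 0.00233) and −0.57 against WT 5xFAD microglia (adjusted p = 0.0204). The last had an adjusted p of 0.057 to 0.0854 without S29, S30, S22 or S23 in turn, and 0.124 without S30 and S31. KO-donor cells against KO 5xFAD microglia gave −0.47 (adjusted p = 0.0547 in limma, 0.0639 in edgeR and 0.0355 in DESeq2), with overlapping libraries. That limma value was 0.0165 without S32, 0.0369 without S25 and 0.00583 without S25 and S27 (−0.92), but 0.224 without S26 (−0.25).

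WT 5xFAD microglia had less Slc40a1 than normal microglia by −0.69 on the log2 scale (SE 0.186, limma adjusted p = 0.0456). The libraries did not overlap, but leaving out any 1 of the 6 (S22, S23, S24, S20, S21 or S36) gave an adjusted p of 0.0974 to 0.158, and edgeR gave 0.0521. KO 5xFAD against normal microglia gave −0.48 (adjusted p = 0.113), and −0.70 without S26 (adjusted p = 0.00389), where only the close pair S25 and S27 remains. Without that pair, S26 alone gave −0.04. Between KO-donor and WT-donor cells the difference was 0.31 (95% interval −0.03 to 0.64).

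Cp (ENSMUSG00000003617.16, chr3:19957054-20009145) showed the largest difference of any member. KO-donor cells had 3663, 3679, 4521 and 3707 normalized reads and WT-donor cells 4088, 3219, 3333 and 3402. KO 5xFAD microglia had 301, 276 and 404, WT 5xFAD microglia 195, 314 and 214, and normal microglia 199, 287 and 304. The lowest donor-cell library was far above the highest microglia library. Donor cells were 12-fold higher for KO-donor cells against KO 5xFAD microglia (log2 3.58, SE 0.184, limma adjusted p = 1.1e-10) and 14.8-fold higher for WT-donor cells against WT 5xFAD microglia (log2 3.89, SE 0.184, adjusted p = 2.43e-11). WT-donor cells exceeded KO 5xFAD microglia by 3.43 (adjusted p = 1.61e-10) and normal microglia by 3.75 (adjusted p = 4.3e-11). Between KO-donor and WT-donor cells Cp gave 0.15 (95% interval −0.21 to 0.51). KO 5xFAD against WT 5xFAD microglia gave 0.45 (adjusted p = 0.19, and 0.0471 without S26).

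Cp is also made by astrocytes and choroid plexus, and both marker lists were set beside it. The 8 astrocyte markers summed to 807 to 1043 reads in KO-donor cells and 1091 to 1639 in WT-donor cells, below the 4950 to 8924 of microglia groups. The 6 choroid plexus markers, led by Ttr, summed to 41.6 to 1805 in KO-donor cells and 2024 to 10997 in WT-donor cells, against 176 to 3223 in microglia groups. The part of these cells in the Cp difference was not tested. Exons of Cp overlap those of Hps3 on the opposite strand, and SMART-Seq v4, the library kit, does not mark strand. Hps3 averaged 2602 in KO-donor cells and 1820 in WT-donor cells, against 2589, 2535 and 2843 in KO 5xFAD, WT 5xFAD and normal microglia.

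Ireb2 (ENSMUSG00000032293.8, chr9:54863789-54912530), an iron regulatory protein, ranged from 317 to 583 normalized reads in KO-donor cells, 250 to 374 in WT-donor cells, 370 to 618 in KO 5xFAD microglia, 423 to 491 in WT 5xFAD microglia and 311 to 408 in normal microglia. It was lower in WT-donor cells by −0.70 against KO 5xFAD microglia (SE 0.212, limma adjusted p = 0.0173), where libraries overlapped, and by −0.64 against WT 5xFAD microglia (SE 0.212, adjusted p = 0.0319), where they did not. The first had an adjusted p of 0.119 without S27, and the second 0.0641 to 0.122 without S29, S30, S31, S22, S23 or S24 in turn. KO-donor against WT-donor cells gave 0.53 (adjusted p = 0.103, and 0.0388 without S28).

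Aco1 (ENSMUSG00000028405.9, chr4:40143081-40198338), a cytosolic aconitase that becomes an iron regulatory protein when it loses its iron-sulfur cluster, ranged from 1340 to 1699 normalized reads in KO-donor cells and 1369 to 1893 in WT-donor cells. The ranges were 901 to 1320 in KO 5xFAD microglia, 1383 to 1466 in WT 5xFAD microglia and 1385 to 1556 in normal microglia, so KO 5xFAD microglia lay below every library of the other groups. Against KO 5xFAD microglia, Aco1 was higher by 0.55 in KO-donor cells (SE 0.139, limma adjusted p = 0.0069, and 0.0569 without S27) and by 0.63 in WT-donor cells (SE 0.139, adjusted p = 0.00226). Without both S25 and S27 these were 0.25 (adjusted p = 0.357) and 0.33 (0.224). KO 5xFAD microglia themselves gave −0.40 against WT 5xFAD microglia (adjusted p = 0.134, and 0.00898 without S26) and −0.44 against normal microglia (adjusted p = 0.0824, and 0.00405 without S26).

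**Figure D3:**
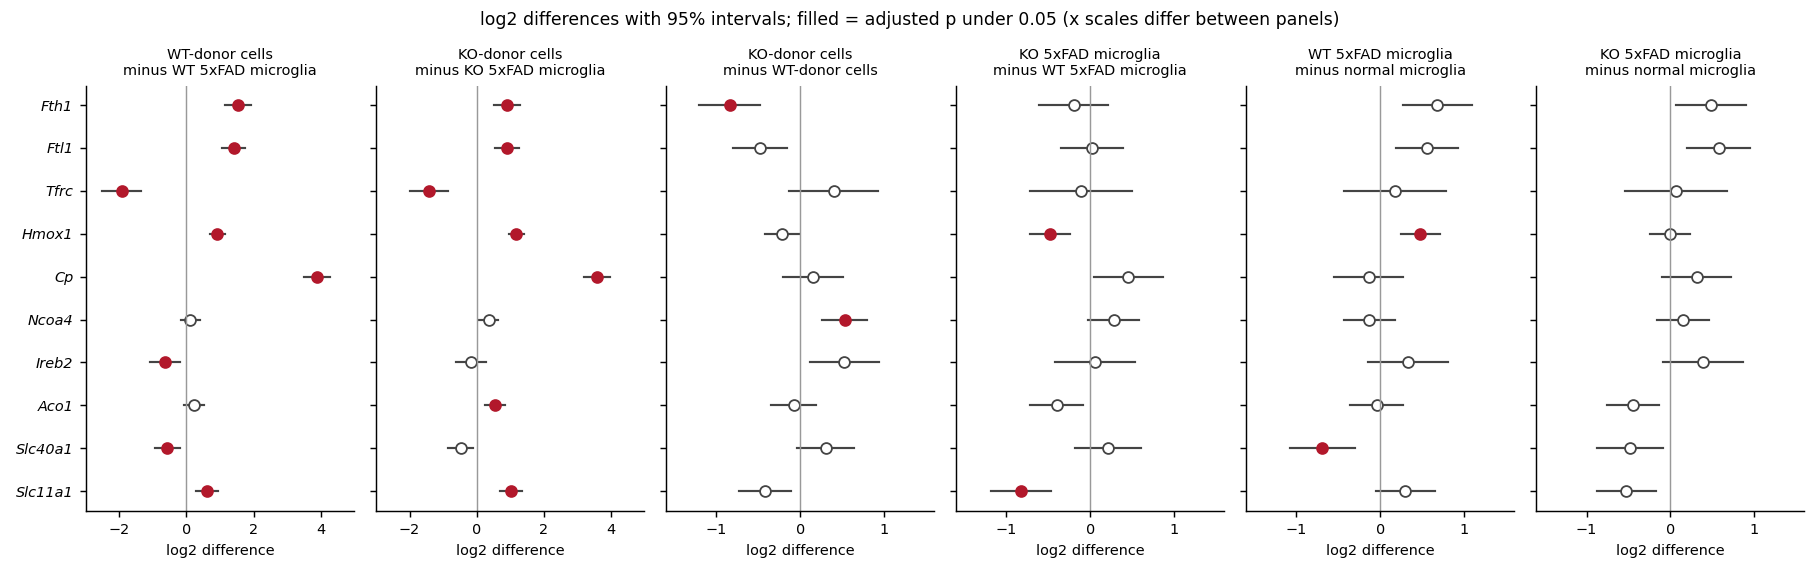
log2 differences of the 10 genes in 6 comparisons (horizontal axes, scales differ), with 95% intervals; filled points passed an adjusted p of 0.05. Cp (3.89 and 3.58) and Tfrc (−1.94 and −1.43) stand farthest from 0 in the donor-cell panels on the left.

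Counts over the 10 members were read against all 12074 genes tested. For KO-donor cells against KO 5xFAD microglia 6 members were higher (11.7% of all genes) and 1 lower (13.7%), with a median log2 difference of 0.72 over members and −0.02 over all genes. For WT-donor cells against WT 5xFAD microglia 5 were higher (13.6%) and 3 lower (14.6%), with medians of 0.42 and −0.03. Against KO 5xFAD microglia WT-donor cells had 6 higher (17.3%) and 3 lower (17.8%), with medians of 1.01 and −0.01, and against normal microglia 5 higher (16.1%) and 2 lower (14.3%), with medians of 0.55 and −0.01. These 4 comparisons share groups, so they do not count as separate evidence.

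The other comparisons called fewer members. KO-donor against WT-donor cells had 1 higher (2.99% of all genes), Ncoa4, and 1 lower (3.75%), Fth1, with medians of 0.04 over members and −0.05 over all genes. KO 5xFAD against WT 5xFAD microglia had 0 higher (2.5%) and 2 lower (2.59%), Hmox1 and Slc11a1, with medians of −0.04 and −0.01. WT 5xFAD against normal microglia had 1 higher (2.83%), Hmox1, and 1 lower (0.952%), Slc40a1, with medians of 0.24 and 0.00. KO 5xFAD against normal microglia had 0 higher (2.7%) and 0 lower (1.21%) in limma, 5 members at an unadjusted p under 0.05, 1 call in edgeR and 2 in DESeq2, with medians of 0.11 and 0.03. Without S26 limma called 5 members for KO 5xFAD against normal microglia, beside 4601 of all genes. For KO 5xFAD against WT 5xFAD microglia it then called 5 members, beside 3673 of all genes. For KO-donor against WT-donor cells 0 members were called without S30 or without S31 (113 of all genes each time). Without S28 the count was 6 (1886 of all genes). No share of all genes was counted at an unadjusted p under 0.05, here or for the interaction below.

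Whether the Trem2 genotype difference itself differed between donor cells and microglia was tested as an interaction. No member passed it in limma, with 0 higher (0.87% of all genes) and 0 lower (1.95%), 2 at an unadjusted p under 0.05, and 0 calls in edgeR and in DESeq2. The lowest adjusted p was 0.195 for Fth1, at −0.64 (95% interval −1.19 to −0.09). Without S26, Fth1 gave −0.85 (adjusted p = 0.0243) and Ftl1 −0.66 (adjusted p = 0.0485). That fit keeps only the close pair S25 and S27 in its group, and its calls over all genes rose from 341 to 1666. With each library left out in turn, Fth1 ranged from −0.85 to −0.51 (limma adjusted p from 0.0243 to 0.429). Ftl1 ranged from −0.66 to −0.39 (limma adjusted p from 0.0485 to 0.522).

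Other genes of iron and heme handling were counted in 7 lists, members left out. These counts are read against all genes tested, of which 11.7% were higher and 13.7% lower in KO-donor cells against KO 5xFAD microglia, and 13.6% and 14.6% in WT-donor cells against WT 5xFAD microglia, with medians of −0.02 and −0.03. In heme turnover 4 of 15 tested genes were higher and 1 lower in KO-donor cells against KO 5xFAD microglia, and 6 higher and 1 lower in WT-donor cells against WT 5xFAD microglia, with list medians of −0.15 and 0.14. The knockout pair's median thus had the opposite sign to its larger count. Blvrb, a biliverdin reductase that continues the breakdown Hmox1 begins, had 2207 ± 294 reads in KO-donor cells against 1001 ± 85.1 in KO 5xFAD microglia, and 3507 ± 988 in WT-donor cells against 664 ± 48.5 in WT 5xFAD microglia (limma adjusted p = 6.5e-05 and 6.15e-09). Spic, a transcription factor of iron-recycling macrophages, had 188 ± 31 reads in WT-donor cells against 4.07 ± 4.15 in WT 5xFAD microglia. Blvra, the other biliverdin reductase, was higher in the same comparison by 0.99 (limma adjusted p = 2.89e-05). Nfe2l2, the oxidative stress regulator NRF2, was higher by 0.98 in KO-donor cells than in KO 5xFAD microglia (limma adjusted p = 2.12e-06). The 1 gene lower there was Hp, haptoglobin, at −2.42, which neutrophils and monocytes make, and which was higher in KO 5xFAD than in WT 5xFAD microglia by 3.47 (limma adjusted p = 7.12e-06).

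A list of 14 NRF2 targets and ferroptosis guards also held Keap1, Acsl4, Lpcat3 and Alox5, which have other roles. Its counts and medians therefore mix genes of unlike function. In it, 4 were higher and 3 lower in KO-donor cells against KO 5xFAD microglia. In WT-donor cells against WT 5xFAD microglia 6 were higher and 2 lower. The list medians were 0.09 and 0.37. Aifm2, a suppressor of ferroptosis, was higher by 1.56 and 2.39 (limma adjusted p = 0.000103 and 6.1e-07), and Lpcat3, which builds polyunsaturated phospholipids, was lower by −1.21 and −1.11. Srxn1, sulfiredoxin, was higher by 1.69 in the wild-type pair. Between KO-donor and WT-donor cells, 0 of these genes were higher (2.99% of all genes) and 3 lower (3.75% of all genes), with medians of −0.35 for the list and −0.05 for all genes. They were Txnrd1, a thioredoxin reductase (−0.70, limma adjusted p = 0.00354), Slc7a11, a cystine importer (−1.57, adjusted p = 0.0185), and Srxn1 (−0.89, adjusted p = 0.0247). Limma calls over all genes in this donor comparison fell from 814 to 15 when S30 and S31 were left out.

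For iron uptake, 3 of 14 genes were higher and 2 lower in KO-donor cells against KO 5xFAD microglia, and 3 higher and 3 lower in WT-donor cells against WT 5xFAD microglia, with list medians of −0.06 and 0.10. Trf, transferrin, was higher by 0.77 and 0.78, and Cd163, a hemoglobin-haptoglobin receptor, was lower by −2.54 and −2.64 (limma adjusted p from 3.71e-05 to 0.000594). Oligodendrocytes also make transferrin, and their part in these differences was not tested. Between KO-donor and WT-donor cells 0 were higher (2.99% of all genes) and 3 lower (3.75% of all genes), with a list median of −0.33: Trf (−0.49, limma adjusted p = 0.0394), Slc22a17, a lipocalin receptor (−1.44, adjusted p = 0.00523), and Steap1, which averaged 0.858 ± 1.71 reads in KO-donor cells and 30.7 ± 16 in WT-donor cells. WT-donor libraries also held more choroid plexus marker reads (2024 to 10997, against 41.6 to 1805 in KO-donor cells), and S30 and S31 the most oligodendrocyte marker reads. The part of such cells in these genotype differences was not tested. Without S30 and S31, limma calls over all genes in this comparison fell from 814 to 15. In iron export 0 of 3 were higher and 1 lower in both donor-to-microglia pairs, the porphyrin and heme transporter Abcg2 (−1.33 and −1.79), with list medians of −0.41 and −0.51.

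The remaining lists held few calls, set against the same shares of all genes. In iron storage and ferritin handling 0 of 5 were higher and 2 lower in KO-donor cells against KO 5xFAD microglia, and 0 were called in WT-donor cells against WT 5xFAD microglia, with list medians of −0.29 and −0.08. In iron sensing and regulation 1 of 10 was higher and 2 lower in the first pair, and 0 higher and 3 lower in the second, with list medians of −0.10 and −0.36. Hif1a, the hypoxia-inducible factor, was lower by −0.85 and −1.50. Between WT 5xFAD and normal microglia it was higher by 1.54 (limma adjusted p = 0.00169), and Zfp36, an mRNA-decay factor, by 1.11 (adjusted p = 0.00611). Zfp36 was lower in KO 5xFAD than in WT 5xFAD microglia by −0.97 (limma adjusted p = 0.0148) and lower in KO-donor than in WT-donor cells by −0.98 (adjusted p = 0.0106). The donor comparison is the one whose calls over all genes fell from 814 to 15 without S30 and S31. In mitochondrial iron and iron-sulfur assembly 1 of 15 was higher and 3 lower in the knockout pair, and 2 higher and 2 lower in the wild-type pair, with list medians of −0.12 and 0.17. The list held Isca1, an iron-sulfur carrier, lower in both by −0.57 and −0.81. Across the lists, the genes called in the interaction were all lower, beside 1.95% of all genes lower and 0.87% higher. They were Hp (−3.89, limma adjusted p = 0.000115), Blvrb (−1.22, 0.00805), Slc7a11 (−2.39, 0.0176) and Steap1 (−5.70, 0.0288).

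**Figure D4:**
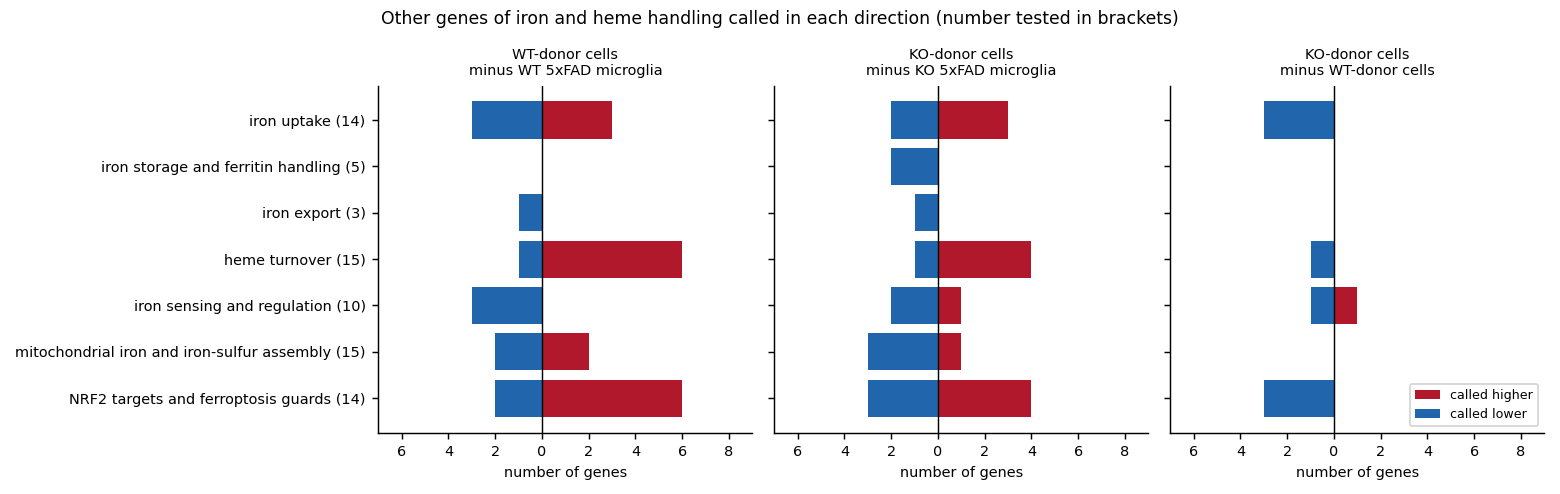
Genes called higher (right, red) and lower (left, blue) in 7 lists of iron and heme handling, with the number tested in brackets and the 10 members left out, for 3 comparisons. Heme turnover has 6 genes higher in WT-donor cells than in WT 5xFAD microglia and 4 higher in KO-donor cells than in KO 5xFAD microglia. The list labelled NRF2 targets and ferroptosis guards also holds genes of other roles.

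The genes closest in pattern over the 17 libraries were ranked by Pearson correlation of log2 values, as a description, since libraries of a group share their group's level. For Fth1 they were Ftl1 (r = 0.984), Anxa5 (0.982) and Aldh2 (0.971). For Hmox1 they were Rftn1 (0.981), Rtcb (0.98) and Ptger4 (0.979). For Slc40a1 they were Tmem119, a marker of resident microglia (0.948), Prkab1 (0.946) and Nrm (0.946). For Tfrc they were Tfpi (0.974), Slmap (0.967) and Clip1 (0.959).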

How the data were processed

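Sorted living CD45+CD11b+ cells were profiled by SMART-Seq v4 and NovaSeq sequencing, per the labels' protocols. The submitters' processing notes name bcl2fastq, STAR 2.5.2b, HTSeq, RSEM, DESeq2 (as version 3.17), mm10 and GRCm38.p6, with no role for each, and the sources used here name no annotation. The deposited signal is a normalized read count: in every library 100.0% of the nonzero values checked were whole multiples of 1 step within 0.02, so the authors divided reads by 1 size factor per library. High values, such as those of Fth1, Ftl1 and Slc11a1, were not part of that check. In S20 that step was too near 1 to tell apart from rounding. Depth was 16044078 to 30606394 recovered reads, so counting error is small beside the spread between libraries for all but the lowest genes. Column names assign libraries to groups, and give distinct replicate numbers in the normal group alone.

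Values were taken as log2(value + 1). Genes had to reach 10 in at least 3 libraries, which dropped 1427 and left 12074. A single limma fit (3.58.1, trended eBayes, R 4.3.3) of group means used all 17 libraries, with two-sided tests and calls at a Benjamini-Hochberg adjusted p under 0.05. Changes on this scale understate those of low genes. An adjusted p is limma's unless named otherwise. The fit was tested on simulated data. Alternatives were pseudocounts of 0.5 and 10, no filter, edgeR 4.0.16 (quasi-likelihood, TMM) and DESeq2 1.42.0 on recovered reads, a fit of the compared groups alone, each library left out, close libraries averaged, S25 and S27 left out, and, chosen after seeing the data, S30 and S31 left out. Lengths, positions and UTRs are from GENCODE vM21, with 1 principal transcript per gene.

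All 10 members were named in every comparison. From each list, counts and up to 3 called genes with the smallest adjusted p could be named, and 3 correlated genes for each of 4 members. Members and lists were chosen with earlier results of these data known.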

Additional observations from a re-analysis of the deposited data

Results flagged for a closer look

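In 4 of 20 groups of 4 libraries, the highest or lowest library stood far from the rest by Dixon's test at the 95% level, which flags about 1 in 20 by chance. Fth1 in KO-donor cells was lowest in S32, at 74721 normalized reads, with the next library at 88115. Hmox1 in KO-donor cells was highest in S33, at 2810, with the next at 2519. Hmox1 in WT-donor cells was lowest in S28, at 2506, with the next at 3101. Cp in KO-donor cells was highest in S34, at 4521, with the next at 3707.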

How the results depend on the processing

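No paired analysis was possible because the columns outside the normal group carry no distinct replicate number. Of 37 member calls, 28 held under every left-out library and 24 under every alternative run. All 24 were in comparisons of donor cells with microglia, which share groups. In the other comparisons only Slc11a1, for KO 5xFAD against WT 5xFAD microglia, held under every left-out library. Stability was not counted over all genes. Pseudocounts and the filter changed no member call. If both libraries of a close pair (S22 with S23, S25 with S27, S30 with S31) came from 1 animal, standard errors are too small. Without S25 and S27, the lone S26 is assumed to vary like the other groups.

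Member calls that moved were, for WT 5xFAD against normal microglia, 4 (DESeq2), 5 (compared groups only) and 0 (pairs averaged), for KO 5xFAD against normal microglia 1 (edgeR) and 2 (DESeq2), for KO 5xFAD against WT 5xFAD microglia 1 (compared groups only) and 0 (pairs averaged; without S25 and S27), for KO-donor against WT-donor cells 1 (compared groups only) and 0 (pairs averaged; without S30 and S31), and for WT-donor cells against WT 5xFAD microglia 5 (pairs averaged; without S30 and S31). With 1 library left out, member calls ranged from 0 to 1, 0 to 5, 1 to 5 and 0 to 6 in the first 4 of these comparisons and from 0 to 2 in the interaction.

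Calls over all genes were 457 for WT 5xFAD against normal microglia, and 769 (DESeq2), 1829 (compared groups only), 242 (pairs averaged) or 270 to 325 (1 library left out). For KO 5xFAD against normal microglia they were 472, and 1266 (DESeq2), 9 (compared groups only), 20 (pairs averaged), 2 (without S25 and S27) or 46 to 4601. For KO 5xFAD against WT 5xFAD microglia they were 615, and 1001, 273, 167, 233 or 298 to 3673 in the same order. KO-donor against WT-donor cells had 814, and 1695 (DESeq2), 166 (compared groups only), 27 (pairs averaged), 15 (without S30 and S31) or 113 to 1886. Pairs averaged gave 2001 for WT-donor cells against WT 5xFAD microglia, where limma called 3399 with all libraries kept apart. WT-donor cells against KO 5xFAD microglia had 4238, and 2640 (compared groups only), 2109 (pairs averaged), 2184 (without S25 and S27), 2719 (without S30 and S31) or 2740 to 5874. KO-donor cells against KO 5xFAD microglia had 3062, and 1999 (compared groups only). WT-donor cells against normal microglia had 3672, and 2396 (without S30 and S31). The interaction had 341, and 875 (DESeq2), 75 (pairs averaged), 161 (without S25 and S27), 155 (without S30 and S31) or 185 to 1666. On recovered reads edgeR called 458, 443, 569 and 1027 genes in the first 4 comparisons named here, and 402 in the interaction. Fewer samples entered where libraries were left out, and the cause of the other shifts was not tested.

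Signs turned only for members that were not called, and for the Fth1 to Ftl1 ratio of KO-donor cells against KO 5xFAD microglia. With pairs averaged, KO 5xFAD against normal microglia gave −0.116 for Tfrc, KO 5xFAD against WT 5xFAD microglia −0.071 for Ftl1 and −0.002 for Ireb2, the interaction −0.064 for Slc40a1, and that ratio 0.005. Without S25 and S27 these comparisons gave −0.69 for Tfrc and −0.155 for Ncoa4, −0.31 for Ftl1, −0.025 for Ncoa4 and −0.27 for Ireb2, and −0.35 for Slc40a1. In the same setting KO-donor cells against KO 5xFAD microglia gave 0.16 for Ireb2, and WT-donor cells against KO 5xFAD microglia 0.14 for Ncoa4.

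With 1 library left out, WT 5xFAD against normal microglia ranged from −0.343 to 0.001 for Cp and −0.082 to 0.002 for Aco1. KO 5xFAD against normal microglia ranged from −0.209 to 0.447 for Tfrc and −0.04 to 0.051 for Hmox1. KO 5xFAD against WT 5xFAD microglia ranged from −0.331 to 0.01 for Fth1, −0.082 to 0.187 for Ftl1, −0.385 to 0.27 for Tfrc, −0.144 to 0.226 for Ireb2 and −0.012 to 0.334 for Slc40a1. KO-donor against WT-donor cells ranged from −0.168 to 0.00 for Aco1, KO-donor cells against KO 5xFAD microglia from −0.335 to 0.034 for Ireb2, WT-donor cells against normal microglia from −0.064 to 0.043 for Ncoa4, and the interaction from −0.033 to 0.317 for Slc40a1. The log2 ratio of Fth1 to Ftl1 ranged from −0.417 to −0.34 for KO-donor against WT-donor cells, where averaging S30 and S31 gave −0.351 (exact p = 0.0571), and from −0.065 to 0.014 for KO-donor cells against KO 5xFAD microglia. The cause of these shifts was not tested.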
